A study of Mus musculus with 6 samples.

Results

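Fibril-associated collagens with interrupted triple helices (FACITs) were examined in bulk RNA-seq of CD34hi and CD34lo fibroblasts from the pubertal mammary gland. The members were the 9 listed FACIT genes, Col9a1, Col9a2, Col9a3, Col12a1, Col14a1, Col16a1, Col19a1, Col20a1 and Col22a1. They were taken by gene symbol and not by a cut on their values, but with earlier results of these data known. All 9 were found among the 27179 genes of the count table, which holds 44 collagen genes in all. From female FVB/N mice at 6 weeks of age, cells negative for lineage markers (CD31, CD45 and TER-119) and CD24 and positive for Pdgfrα were sorted and divided by their CD34 surface level. Each of 3 pools of 2 mice gave 1 CD34hi and 1 CD34lo library, so that there were 3 libraries per population. The sources used here name no treatment or transgene for these mice, and a library averages over both mice of its pool and over all cells in the gate. Because the populations were gated on CD34, the level of Cd34 checks the sort and is not a result. It was 2490, 2639 and 2584 counts per 1000000 (CPM, TMM-normalized) in CD34hi pools 1, 2 and 3, against 476, 793 and 632 in CD34lo. Pdgfra was present throughout, but lower in CD34hi without overlap, at 637 to 922 CPM against 1036 to 1416 CPM in CD34lo.

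FACITs do not form fibrils themselves. They have short collagenous segments separated by flexible non-collagenous ones, and they sit on the surface of fibrils built from other collagens, where they link the fibril to its surroundings. Collagens XII and XIV coat type I collagen fibrils in skin, fascia and tendon, collagen XVI occurs in dermis and around smooth muscle, and collagen IX decorates the type II collagen fibrils of cartilage as a heterotrimer of the Col9a1, Col9a2 and Col9a3 products. Collagen XIX is known from basement membrane zones, muscle and neurons, and collagen XXII from the junction of muscle with tendon. Collagen XX is less well characterised, and the study lists Col20a1 among its markers of Schwann cells.

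The members lie on 5 chromosomes of GRCm38/mm10. Col9a1 (gene 12839, chromosome 1, 24177610 to 24252738) and Col19a1 (gene 12823, chromosome 1, 24257683 to 24587437) face each other on opposite strands with 4.9 kb and no other listed gene between them. Col9a3 (gene 12841, chromosome 2, 180598222 to 180622185) and Col20a1 (gene 73368, chromosome 2, 180986535 to 181017540) share a strand and lie 364.3 kb apart with 11 genes between. Col9a2 (gene 12840, chromosome 4, 121039566 to 121055325) and Col16a1 (gene 107581, chromosome 4, 130047840 to 130099277) are 9.0 Mb apart. The others are Col14a1 (gene 12818, chromosome 15, 55307750 to 55520803), Col22a1 (gene 69700, chromosome 15, 71798476 to 72034227) and Col12a1 (gene 12816, chromosome 9, 79598991 to 79718678). The library kit does not mark strand, so reads of an overlapping antisense gene cannot be told apart. An antisense gene with 4 counts overlapped Col14a1, which had 489378, and one with 0 counts overlapped Col22a1. Tcfl5, with 134 counts, overlapped Col9a3, which had 403, so that the values of Col9a3 are uncertain.

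Upstream sequence was available for 5 of the 9 members in RefSeq (GRCm38.p6): Col9a1, Col9a2, Col16a1, Col19a1 and Col20a1. The 250 bases before the start site are shown for 3 of them, which stand for the patterns met below: Col9a2 and Col20a1 were lower in CD34hi fibroblasts, and Col16a1 had like levels in both. Capitals mark matches on either strand to a GC box (GGGCGG) or to a SOX motif (ACAAAG), the motif of a factor family active in cartilage and Schwann cells. The windows are chr4:121039316-121039565 for Col9a2, chr4:130047590-130047839 for Col16a1 and chr2:180986285-180986534 for Col20a1, each on the plus strand.
Col9a2: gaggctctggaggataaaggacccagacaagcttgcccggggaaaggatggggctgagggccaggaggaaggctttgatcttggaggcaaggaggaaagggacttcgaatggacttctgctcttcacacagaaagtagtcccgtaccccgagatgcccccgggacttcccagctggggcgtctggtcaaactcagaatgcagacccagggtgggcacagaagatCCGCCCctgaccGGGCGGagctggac
Col16a1: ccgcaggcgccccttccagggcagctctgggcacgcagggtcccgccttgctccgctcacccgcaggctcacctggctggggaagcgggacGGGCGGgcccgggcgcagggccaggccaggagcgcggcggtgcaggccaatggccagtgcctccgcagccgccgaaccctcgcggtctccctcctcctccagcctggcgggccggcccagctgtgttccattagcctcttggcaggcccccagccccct
Col20a1: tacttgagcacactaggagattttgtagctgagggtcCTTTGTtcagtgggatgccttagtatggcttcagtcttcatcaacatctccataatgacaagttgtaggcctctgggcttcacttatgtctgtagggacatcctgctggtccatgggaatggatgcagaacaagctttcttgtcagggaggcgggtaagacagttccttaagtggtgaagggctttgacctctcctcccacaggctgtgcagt
Col9a2 had 2 GC boxes, Col16a1 had 1, and Col20a1 had none but had 1 SOX match. Of 32851 such windows over all genes, 32.7% held a GC box and 16.5% a SOX match, so neither is rare. The G and C content was 60.4% for Col9a2, 75.6% for Col16a1 and 49.2% for Col20a1. No match was found in these 3 or in the windows of Col9a1 and Col19a1 for a TATA box (TATAAA, in 12.4% of all windows) or for the GLI motif GACCACCCA (in 0.225%), which was searched because the study also describes Gli1+ fibroblasts. These are letter matches in short windows and not sites.

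Libraries held between 28764779 and 52402410 counts on genes, and 15219 genes passed the filter on low counts and were tested. Of the 9 members, 6 passed. Col9a1, Col19a1 and Col22a1 did not, with 47, 16 and 10 counts over all 6 libraries. Among the 6 tested members, 1 (Col14a1) was higher and 2 (Col9a2 and Col20a1) were lower in CD34hi fibroblasts at an adjusted p-value under 0.05 (edgeR quasi-likelihood test, Benjamini-Hochberg over all tested genes). Over all tested genes, 16.9% were higher and 18.7% were lower, 35.6% together, so that a share of 3 in 6 among so few genes does not set the family apart. The values of the 2 populations did not overlap for 4 of the 6 tested members, against 50.1% of all tested genes. The median log2 fold change was -0.17 for the 6 members and -0.0064 for all tested genes.

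**Figure D1:**
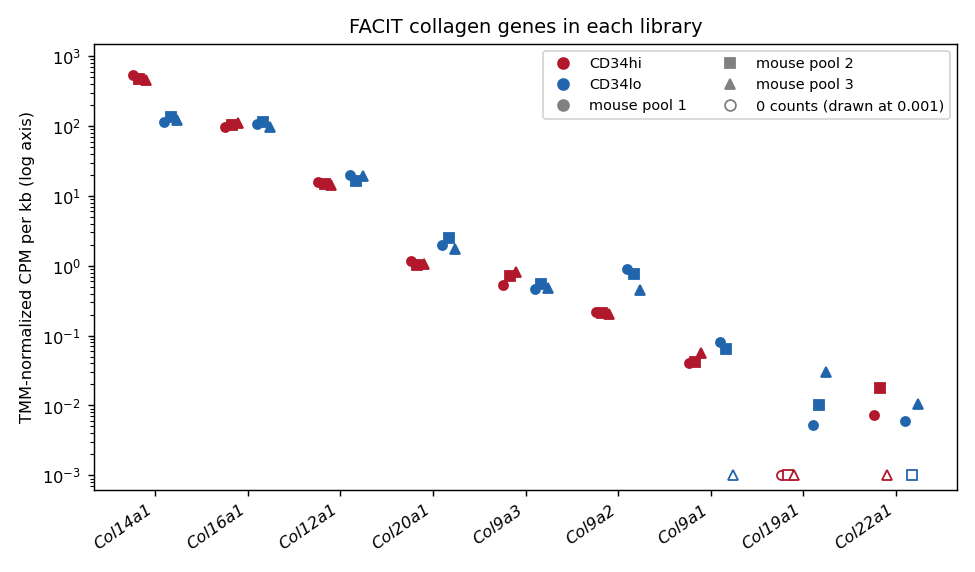
Level of each FACIT gene in each library, in TMM-normalized CPM per kb of gene length on a log axis, ordered by the mean over 6 libraries. Red points are CD34hi and blue points CD34lo libraries, the symbol gives the mouse pool, and open symbols at the bottom are libraries with 0 counts. Col14a1, Col16a1 and Col12a1 lie at 14.2 CPM per kb or more in every library, and the other 6 genes at 2.47 or less.

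Divided by gene length, which is the scale for comparing genes, the levels covered more than 4 orders of magnitude. Col14a1 was the most abundant FACIT gene in both populations, at 492 ± 48.0 CPM per kb (SD, n = 3) in CD34hi and 123 ± 10.1 in CD34lo. Its mean exceeded that of 98.7% of the tested genes. Col16a1 followed with 105 ± 7.52 and 107 ± 7.76 CPM per kb, and Col12a1 with 15.0 ± 0.969 and 18.6 ± 1.88. In CD34hi libraries these 3 genes were far apart. In CD34lo libraries Col14a1 (113.9 to 133.8 CPM per kb) and Col16a1 (98.1 to 113.1) were close, although Col14a1 was the higher in each library. Col20a1, Col9a3 and Col9a2 lay between 0.201 and 2.47 CPM per kb, and Col9a1, Col19a1 and Col22a1 at 0.0806 or less. Neighbours in this order whose values overlapped were Col9a3 and Col9a2 in CD34lo libraries, Col9a1 and Col19a1 in CD34lo libraries, and Col19a1 and Col22a1 in both populations.

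Col14a1 encodes the chain of collagen XIV, which binds decorin and is known to regulate fibril growth in skin and tendon. Its level was 3522, 3052 and 2938 CPM in CD34hi pools 1, 2 and 3, and 734, 863 and 779 CPM in CD34lo pools 1, 2 and 3. Every CD34hi library stood above every CD34lo library, and the lowest CD34hi value was over 3 times the highest CD34lo value. The log2 fold change of CD34hi over CD34lo was 2.00 (standard error 0.15, adjusted p = 2.62e-05, edgeR), in 3 of 3 pools. Taken pool by pool, the log2 difference was 2.26, 1.82 and 1.91. Since these are bulk samples, a larger number of Col14a1-expressing cells and more Col14a1 RNA per cell cannot be told apart, here and for the other members.

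Col12a1 encodes collagen XII, the closest relative of collagen XIV, which is made where tissue bears tension. Its level was 188, 172 and 166 CPM in CD34hi pools 1 to 3 and 234, 192 and 224 CPM in CD34lo pools 1 to 3. CD34hi values were all below CD34lo values, by a narrow margin between 188 and 192. The log2 fold change was -0.31 (standard error 0.12, 95% interval -0.59 to -0.026). It did not pass after adjustment over all genes (adjusted p = 0.0853, edgeR, and 0.0358 before adjustment). It passed under upper-quartile normalization, with -0.36 and an adjusted p of 0.0464 (edgeR), and without CD34lo pool 2, with -0.39 and 0.0442. In 17 of 19 alternatives it did not pass, with an adjusted p of up to 0.305 (edgeR, without pool 1). It had the same sign in every pool, at -0.32, -0.16 and -0.43.

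The balance between these relatives differed between the populations. Col14a1 exceeded Col12a1 per kb by 34.0, 32.2 and 32.1 times in CD34hi and by 5.67, 8.13 and 6.30 times in CD34lo pools 1 to 3. On the log2 scale the ratio of Col12a1 to Col14a1 was -5.03 ± 0.0467 (SD, n = 3) in CD34hi and -2.73 ± 0.27 in CD34lo, a difference of -2.30. An exact two-sided permutation test of 3 libraries against 3 gave p = 0.1, the smallest it can give. Within pools the difference was -2.58, -1.98 and -2.35. Both genes are measured in the same library, so this ratio does not depend on how libraries were scaled.

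Col16a1 encodes collagen XVI, a homotrimer that can bind integrins α1β1 and α2β1. Its level was 505, 544 and 583 CPM in CD34hi pools 1 to 3 and 567, 589 and 511 CPM in CD34lo pools 1 to 3, and the ranges overlapped almost entirely. The log2 fold change was -0.03 (standard error 0.13), with a 95% interval from -0.32 to 0.26. The adjusted p was 0.88 (edgeR). Pools 1 and 2 gave -0.17 and -0.11 and pool 3 gave 0.19, so the sign was not the same in all pools. At this depth and spread, a difference of more than about 0.32 on the log2 scale lay outside the interval.

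The 3 chains of collagen IX were low, and only Col9a2 was called. Col9a2 was 0.604, 0.580 and 0.551 CPM in CD34hi pools 1 to 3 and 2.45, 2.12 and 1.25 CPM in CD34lo pools 1 to 3, from 21 to 27 counts per CD34hi and 39 to 133 counts per CD34lo library. The CD34hi libraries lay close together and below all CD34lo libraries. Its log2 fold change came to -1.75 (standard error 0.34, adjusted p = 0.0041, edgeR), which is 3.36-fold lower in CD34hi in 3 of 3 pools. Without pool 1 it was -1.54 with an adjusted p of 0.0570 (edgeR), so the call rests partly on that pool. Col9a3 was 1.52, 2.04 and 2.29 CPM in CD34hi and 1.31, 1.58 and 1.35 CPM in CD34lo pools 1 to 3, with overlapping ranges. Its log2 fold change of 0.47 (standard error 0.27, 95% interval -0.15 to 1.09) did not pass (adjusted p = 0.215, edgeR). Col9a1 had 7, 6 and 10 counts in CD34hi and 17, 7 and 0 counts in CD34lo pools 1 to 3, or 0.179 and 0.216 CPM when the libraries of a population were summed. No difference was detectable at these counts. Per kb, Col9a3 exceeded Col9a2 by 2.43, 3.40 and 4.01 times in CD34hi, whereas the ratio was 0.515, 0.720 and 1.04 in CD34lo. The overlap of Col9a3 with Tcfl5 makes this ratio uncertain too.

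Collagen IX is best known from cartilage, so the cartilage markers were set beside it. Of 16 markers, 10 were tested. Of these, 1 was higher (Sox5, a chondrogenic factor) and 6 were lower in CD34hi, beside 16.9% and 18.7% of all tested genes. The summed level of the 16 markers was between 41.1 and 49.9 CPM in CD34hi and between 61.5 and 63.0 CPM in CD34lo libraries. Most of the CD34hi sum came from Sox5 (mean 23.1 CPM, against 8.78 in CD34lo) and Sox9. Col11a1 went the other way from Sox5, with means of 1.08 CPM in CD34hi and 15.5 CPM in CD34lo. Col2a1, the chain of the cartilage fibril that collagen IX coats, was 0.738, 0.359 and 0.287 CPM in CD34hi and 4.85, 3.09 and 2.96 CPM in CD34lo pools 1 to 3 (log2 fold change -2.97, adjusted p = 0.000594, edgeR). Col11a1, its fibril partner, had a log2 fold change of -3.85. The proteoglycan gene Acan had 38 counts and did not pass the filter, and Matn1 had 0 counts in all libraries. Sox9, which encodes the main cartilage factor, was 12.5 ± 1.38 and 15.9 ± 1.10 CPM (SD, n = 3) in CD34hi and CD34lo and did not pass. The part of these genes in the difference of Col9a2 was not tested.

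Col20a1 was 4.85, 4.36 and 4.39 CPM in CD34hi pools 1 to 3 and 8.24, 10.4 and 7.20 CPM in CD34lo pools 1 to 3, without overlap. Its difference on the log2 scale was -0.92 (standard error 0.18, adjusted p = 0.00446, edgeR), 1.89-fold lower in CD34hi in 3 of 3 pools. Without pool 2 it was -0.74 with an adjusted p of 0.0598 (edgeR). Other genes known from Schwann cells were set beside it. Mbp, which encodes a myelin protein, was 36.8, 40.2 and 47.0 CPM in CD34hi and 8.12, 14.8 and 10.9 CPM in CD34lo pools 1 to 3, and was higher in CD34hi (log2 fold change 1.88). Sox10, the defining factor of the lineage, was below 1 CPM in every library and did not pass (log2 fold change -0.45, adjusted p = 0.546, edgeR). S100b, Cdh19 and Prx were lower in CD34hi, with log2 fold changes of -1.14, -3.34 and -2.71. Mag and Gfra3 had 6 and 2 counts in all. The part of Schwann cell RNA in the difference of Col20a1 was not tested.

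Col19a1 had 0 counts in all 3 CD34hi libraries and 3, 3 and 10 counts in CD34lo pools 1 to 3. Set against a floor of 3 counts over the CD34hi libraries, the pooled CD34lo rate was 6.17 times that floor. This value bounds only the CD34hi side and is no minimum for the difference. Only 1 library, CD34lo pool 3 with 10 of the 16 counts, held more than 3 counts. Its counts were too low for it to be tested with the rest. In a fit without that filter its adjusted p was 0.0382 (edgeR), and 0.0768 with the replicate block as well. Col22a1 had 2, 4 and 0 counts in CD34hi and 2, 0 and 2 counts in CD34lo pools 1 to 3, and no difference was detectable. Muscle markers were low, at 1.27 to 1.57 CPM in CD34hi and 3.50 to 3.88 CPM in CD34lo when summed over 4 genes, and Des was the only one of the 2 tested that was lower in CD34hi (log2 fold change -1.58).

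**Figure D2:**
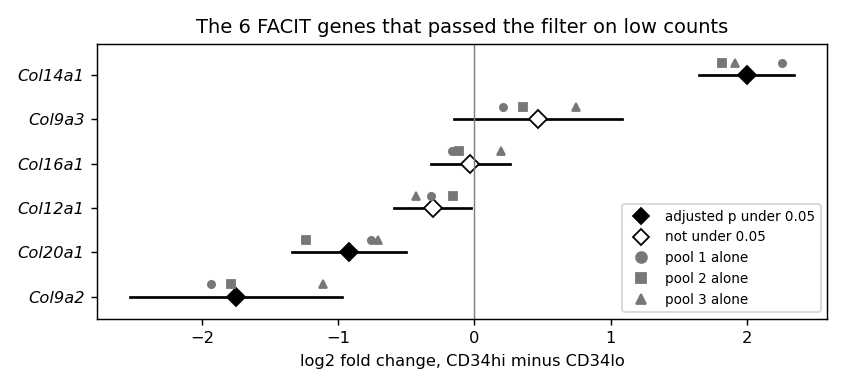
Log2 fold change of CD34hi minus CD34lo for the 6 tested FACIT genes, with its 95% interval (line, from the model over all genes) and the difference within each mouse pool (grey symbols, from log2 CPM with a prior count of 2). Filled diamonds have an adjusted p under 0.05: Col14a1 at 2.00, Col20a1 at -0.92 and Col9a2 at -1.75.

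The populations differed in the mix of FACIT transcripts that they held. In CD34hi libraries Col14a1 made up 82.6%, 79.6% and 78.0% of the summed FACIT CPM per kb in pools 1 to 3, Col16a1 14.7%, 17.6% and 19.2%, and Col12a1 2.43%, 2.48% and 2.43%. In CD34lo libraries Col14a1 made up 46.2%, 50.1% and 50.2%, Col16a1 44.2%, 42.3% and 40.7%, and Col12a1 8.15%, 6.16% and 7.97%. The other 6 genes together held 0.333% ± 0.0333 (SD, n = 3) in CD34hi and 1.32% ± 0.177 in CD34lo. No share of these 3 genes overlapped between the populations. Shares add up to the whole, so the lower share of Col16a1 in CD34hi stands beside a level that did not differ beyond its spread.

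**Figure D3:**
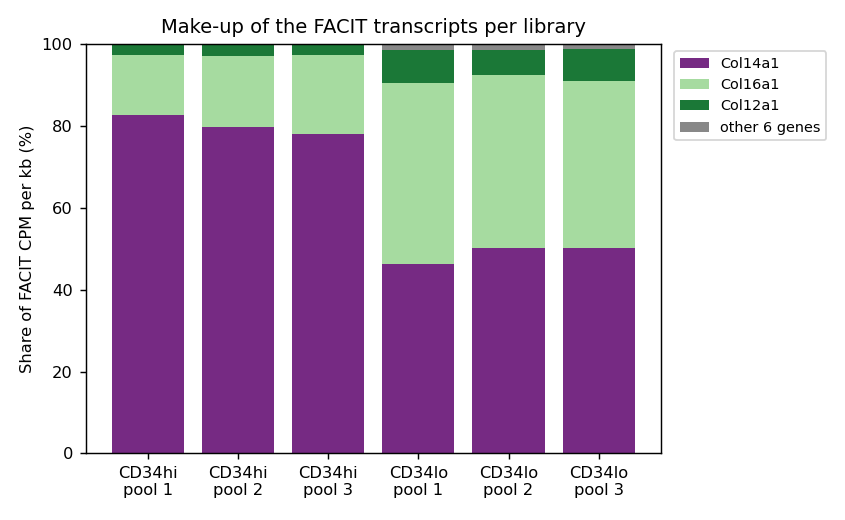
Share of each FACIT gene in the summed FACIT CPM per kb of a library, in percent, for the 3 CD34hi and 3 CD34lo libraries. Col14a1 takes 78.0% or more in CD34hi and 50.2% or less in CD34lo, and Col16a1 takes 40.7% or more in CD34lo.

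FACITs act on the surface of fibrils, so their transcripts were also set against those of type I collagen (Col1a1 plus Col1a2, CPM per kb). The FACIT sum was 613 ± 41.9 CPM per kb (SD, n = 3) in CD34hi and 251 ± 13.9 in CD34lo, whereas the type I sum was 4426 ± 704 and 7571 ± 619. Relative to type I collagen, FACIT transcripts stood at 16.4%, 14.8% and 11.1% in CD34hi pools 1 to 3 and at 3.30%, 3.24% and 3.43% in CD34lo. The CD34lo libraries were nearly equal and the CD34hi libraries were all more than 3 times as high. The log2 ratio differed by 2.07, with p = 0.1 from an exact two-sided permutation test, the smallest that 3 against 3 allows, and by 2.31, 2.19 and 1.70 within pools. Col14a1 alone was 11.4% ± 2.46 of type I collagen in CD34hi and 1.62% ± 0.0983 in CD34lo. Col16a1, at a like level in both, was 2.38% ± 0.235 and 1.41% ± 0.0454 without overlap, and Col12a1 was 0.346% ± 0.0665 and 0.247% ± 0.0414 with overlapping ranges. These ratios share their denominator and are not independent of each other. As a share of the CPM per kb of all 44 collagen genes, FACITs held 5.32%, 4.99% and 3.80% in CD34hi and 1.15%, 1.19% and 1.16% in CD34lo pools 1 to 3.

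**Figure D4:**
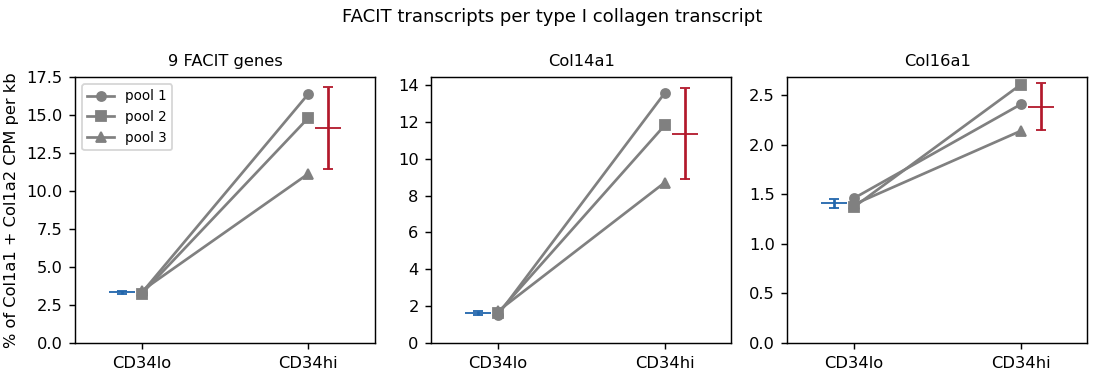
Transcripts of all 9 FACIT genes, of Col14a1 and of Col16a1 as a percentage of Col1a1 plus Col1a2, each in CPM per kb, on axes that start at 0. Grey lines join the 2 populations of a mouse pool, and the coloured bars give mean ± SD of 3 libraries. In each panel and each pool the CD34hi value lies above the CD34lo value.

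Of the 35 other collagen genes, 33 were tested, 3 were higher and 24 were lower in CD34hi, and 6 did not pass, with a median log2 fold change of -1.58. Among all tested genes, 16.9% were higher and 18.7% were lower. Without pool 3, 1 of the other collagen genes was higher. With the mouse pool as a block in edgeR, Col4a4 and Col28a1 were called lower too (adjusted p = 0.0096 and 0.0087). Of the 11 fibrillar collagens 8 were lower, and the other 3 did not pass. Col1a1 and Col1a2 had log2 fold changes of -0.87 and -0.69 (adjusted p = 0.00808 and 0.0201, edgeR), and Col3a1, the other abundant chain, had -0.44 and did not pass (adjusted p = 0.13). The largest differences among fibrillar genes were in Col24a1 (-4.83), Col11a1 (-3.85) and Col2a1 (-2.97). Of 8 tested basement membrane and multiplexin genes 1 was higher and 6 were lower, of 10 tested beaded, network and anchoring genes 2 were higher and 7 were lower, and of 4 transmembrane genes 3 were lower. The 3 higher genes were Col6a5 (1.84), Col6a6 (1.10) and Col4a5 (0.90), and the lowest were Col7a1 (-6.73), Col25a1 (-6.35) and Col13a1 (-5.51). Col14a1, at 2.00 (95% interval 1.65 to 2.35), had the highest value among the tested collagen genes, but its interval overlapped that of Col6a5 (1.29 to 2.39), and in pool 3 Col6a5 had the larger difference (2.45 against 1.91).

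**Figure D5:**
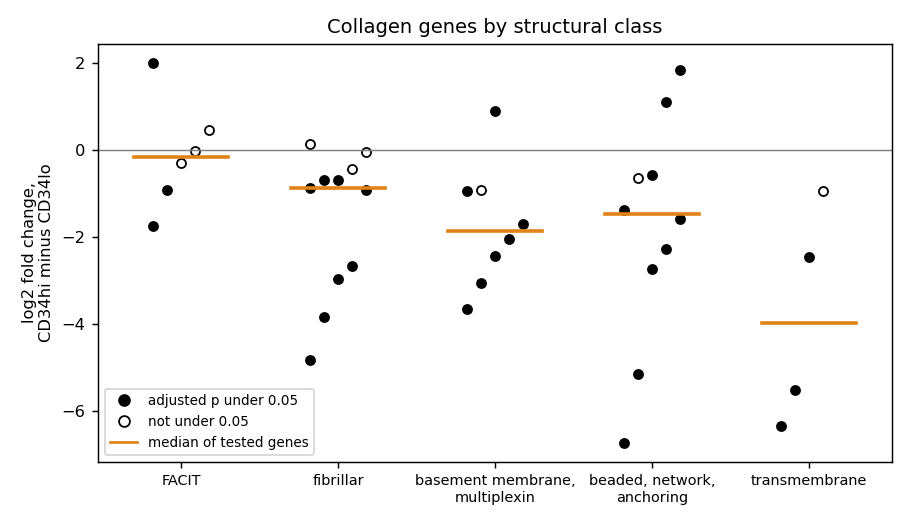
Log2 fold change of CD34hi minus CD34lo for the tested collagen genes by structural class. Filled points have an adjusted p under 0.05, and the orange line is the median of a class, from -0.17 for the 6 FACIT genes to -3.99 for the 4 transmembrane genes. Most points lie below 0, and Col14a1 is the highest point.

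Genes for known binding partners of FACITs were taken as a list of 11. Of the 9 tested, 3 were higher and 2 were lower in CD34hi, beside 16.9% and 18.7% of all tested genes. Tnxb, which encodes tenascin-X, a partner of collagens XII and XIV, was 2830, 2952 and 3560 CPM in CD34hi and 1039, 1853 and 1185 CPM in CD34lo pools 1 to 3, without overlap (log2 fold change 1.20, standard error 0.23, adjusted p = 0.0040, edgeR). Matn4, a matrilin gene, and Itga2, the α chain of a collagen-binding integrin, had log2 fold changes of 2.99 and 2.69. Fmod, the small proteoglycan fibromodulin that binds collagen XII, was 1.07, 1.41 and 0.441 CPM in CD34hi and 30.2, 43.9 and 31.3 CPM in CD34lo, with a log2 fold change of -5.19, and Itga1 had -2.19. Fmod and Comp also stand in the tendon list below, and Comp in the cartilage list. Dcn, which encodes decorin, did not pass (-0.34, adjusted p = 0.176, edgeR), nor did Itgb1, Cd44 and Comp (-0.09, 0.82 and -1.47). With the mouse pool as a block in edgeR, Cd44 was called higher (adjusted p = 0.0039) and Comp lower (adjusted p = 0.0272), which makes 4 partners higher and 3 lower. Matn3 and Matn1 had 2 and 0 counts.

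Tendon markers, set beside the collagens XII, XIV and XXII of that tissue, were a list of 6, of which 5 were tested. Of these, 3 were lower in CD34hi, namely Fmod, Thbs4 (-5.17) and Tnmd (-4.36), and the other 2 did not pass. Among all tested genes, 18.7% were lower. The summed level of the 6 tendon markers was 4.43 to 17.1 CPM in CD34hi and 266 to 521 CPM in CD34lo. Most of both sums came from Thbs4 alone (mean 9.96 CPM in CD34hi and 358 CPM in CD34lo). Scx, the defining tendon factor, was below 1 CPM in all libraries. Some markers of other cells were called too, beside 35.6% of all tested genes in either direction. In CD34hi, 2 of 6 epithelial, both of 2 pericyte and 1 of 3 tested macrophage markers were lower, both of 2 keratinocyte markers were higher, and of 5 fibroblast markers 1 was higher and 3 were lower. Of the 3 endothelial markers 1 was lower and 1, Cd34 itself, was higher. The remaining marker, Vwf, was called lower with the mouse pool as a block in edgeR (adjusted p = 0.0055). The summed levels in CD34hi and CD34lo libraries were 34.7 to 41.1 and 68.8 to 69.7 CPM for epithelial, 1.59 to 2.46 and 7.36 to 11.5 CPM for pericyte, 2.57 to 3.20 and 27.3 to 48.6 CPM for macrophage, and 14.3 to 19.9 and 3.60 to 7.12 CPM for keratinocyte markers. The epithelial difference came from Acta2 (3.24 ± 0.0076 against 33.3 ± 5.04 CPM) and Itga6, while Epcam, Krt8, Krt18 and Krt14 did not pass. The macrophage difference came almost wholly from Fcgr2b (0.518 ± 0.502 against 36.0 ± 10.8 CPM), while C1qa, Fcgr1 and Cd163 had means under 1 CPM in both populations and Cd68 did not pass. The endothelial list, 2496 to 2658 and 498 to 818 CPM, consists mostly of Cd34 itself, and the fibroblast list summed to 28386 to 31856 and 31503 to 36429 CPM. The part of these cells in the results above was not tested.

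The genes whose pattern was most like that of a member were taken by Pearson's r of log2 CPM over the 6 libraries, among 8873 tested genes with a mean log2 CPM of at least 3. For Col14a1 they were Bmp6, Tle5 and Tlr2, each with r = 0.999, and 862 genes had r over 0.95, since the split between populations sets most of the pattern. For Col12a1 they were Cnn3, 2610524H06Rik and Net1, with 118 genes over 0.95, and for Col20a1 they were Dnajb1, Junb and Osgin1, with 242. Those of Col9a2 were H2ax, Ddx51 and Rundc1, and those of Col9a3 were Man1c1, Wdfy2 and Dnajc13. Col16a1 had only 2 genes over 0.95, Trerf1 (r = 0.986) and Bnip1 (r = 0.964), followed by Trmt2a (r = 0.936). These are descriptions over 6 points that share library and population.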

How the data were processed

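Bulk RNA-seq libraries of polyA RNA from CD34hi and CD34lo mammary fibroblasts (3 each) were made by the authors with TruSeq RNA v2 and sequenced on a NextSeq 500. The authors aligned reads to GRCm38/mm10 and deposited whole-number counts per gene from Rsubread, with no normalization or filter. The annotation, the strand setting and the handling of multi-mapping reads are not given in the sources used here. Symbols came from a RefSeq gene table (GRCm38.p6), which named 25275 of the 27179 gene identifiers. Libraries were grouped by their labels. Libraries with the same number come from the same mice, and their deviations from the population means correlated across genes with r = 0.279, 0.0844 and 0.243. Libraries of a population differed by more than sampling noise (chi-square over degrees of freedom from 23.1 upwards). Replicates are pools of different mice.

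The analysis used edgeR 4.0.16 under R 4.3.3, with filterByExpr by population, TMM normalization, and the quasi-likelihood test of CD34hi against CD34lo over all 15219 genes kept, with Benjamini-Hochberg adjustment and a threshold of 0.05. The fit had no pool term, since the study's methods, which used limma-voom, name none. The libraries are paired by pool, however, and with the mouse pool as a block edgeR called 6161 genes against 5411 without it. Standard errors were derived from the fold change and its F statistic, and 95% intervals use the model's degrees of freedom. CPM are scaled by TMM, levels between genes are CPM per kb of the deposited gene length, and ratios were tested by exact permutation (scipy 1.17.1). A count of 0 in a library allows up to 3 counts, 0.0572 to 0.104 CPM, a limit that covers counting error only. The test was checked on simulated counts. It called 69.1% of 97 genes with a true log2 change of 1 and 95.1% of 103 genes with a change of 2. Smaller changes were not simulated. Alternatives were limma-voom (limma 3.58.1), DESeq2 1.42.0, RLE and upper-quartile normalization, 2 other filters, the replicate block, thinned counts, each pool and library left out, and stricter thresholds. The 9 members are all named. Of other genes, fibril partners, relevant markers and the 3 genes most like each member are named. The 3 largest called differences are named for fibrillar collagens, other collagens, binding partners and tendon markers, but not for every list. Called genes of the cartilage, fibroblast, keratinocyte, pericyte and endothelial lists were left unnamed above, among them Epyc (log2 fold change -3.06), Igfbp5 (3.45) and Krtdap (5.95). Itga1, Itgb1, Cd44, Scx, Acta2, Itga6, Fcgr2b and the other epithelial and macrophage markers were named after their values were seen, to complete small counts. The same holds for Vwf, Col6a5, Col6a6, Col4a5, Col4a4 and Col28a1. Members and lists were chosen with earlier results of these data known. The study's tumor, single-cell and proteomic data were not analysed here. Some genes of the Schwann lists, and sums and counts over those lists, are not reported here.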

Additional observations from a re-analysis of the deposited data

How the results depend on the processing

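Over 26 results and 299 alternatives, 278 kept their direction, side of the threshold or size. Counts were scored with a tolerance, so that 18 other collagens lower against 24 was scored as kept. Ratios were scored by their sign alone, and shares by whether they moved less than their SD. Col14a1 passed under all 19 of its alternatives, with a log2 fold change from 1.89 to 2.10. With the replicate block in edgeR the log2 fold changes were 2.00 for Col14a1, -0.30 for Col12a1, -0.03 for Col16a1, -1.70 for Col9a2, 0.45 for Col9a3 and -0.91 for Col20a1, and no call on a tested member changed. It called 4 partners higher and 3 lower and 26 other collagens lower, against 3, 2 and 24 without it. The block gave -2.30 for the ratio of Col12a1 to Col14a1 and 2.07 for the ratio of FACITs to type I collagen, each with p = 0.25 from exact sign flips, the smallest they can give. Leaving out 1 pool or 1 library at a time, Col9a2 ranged from -1.98 to -1.51, Col20a1 from -1.03 to -0.74, Col12a1 from -0.39 to -0.22 and Col16a1 from -0.14 to 0.062, where 5 of 9 such fits turned its sign at adjusted p-values of 0.847 or more (edgeR). Across these fits the number of members lower in CD34hi ranged from 1 to 3, and the number of other collagens higher from 1 to 3. Col12a1 was -0.36 under upper-quartile normalization, which also moved the median of all genes to -0.0587. Where calls also had to reach 1 on the log2 scale, 1 member was lower. Without division by length the share of Col16a1 was 14.1% in CD34hi and 35.2% in CD34lo, and that of Col12a1 was 4.49% and 13.8%, by construction. Thinned counts gave Col12a1 2.42% in CD34hi. Other causes were not tested. Ranking by Spearman's rho kept between 0 and 3 of the 3 most similar genes per member. The 3 members with the fewest counts were removed by the filter on low counts and were fitted only without it.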
